A study of Bos taurus with 170 samples.

Results

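Genes of microRNA (miRNA) processing were followed through single blastomeres of Day 2 and Day 3 bovine embryos. The genes were chosen by their role: DGCR8 and DROSHA for the first cut, XPO5 for export from the nucleus, DICER1 and TARBP2 for the second cut, and AGO2 for the complex that acts on target mRNA. DGCR8 was at the head of the choice because its transcripts were already known to be lower on Day 3 in these data. Of these 6 genes, 4 were listed among the 10772 genes of the UMI count table: DGCR8, DICER1, TARBP2 and AGO2. DROSHA and XPO5 have no entry in that table and no value is given for them. In the RefSeq gene table both have predicted transcript records only. Of 7711 protein-coding genes of that kind 0.363% had an entry in the count table, against 76.2% of 13942 genes with a curated transcript record, so a missing entry says nothing about whether a gene was transcribed.

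A miRNA gene is transcribed into a long primary transcript. In the nucleus the Microprocessor, made of the nuclease DROSHA and its RNA-binding partner DGCR8, releases a hairpin from it, which exportin-5 (XPO5) carries to the cytoplasm. There the nuclease DICER1, with the double-stranded RNA-binding protein TARBP2 or its relative PRKRA, cuts the hairpin to a short duplex, and a strand of it is loaded into an Argonaute protein such as AGO2. In early mammalian embryos these proteins are first made from mRNA stored in the oocyte, before the embryo's own genome becomes active.

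The embryos were produced by in vitro maturation and fertilisation of oocytes from slaughterhouse ovaries and received no treatment. Day 2 embryos are labelled as 8-cell stage and Day 3 embryos as 16-cell stage. After removal of the zona pellucida the blastomeres were separated, and each was sequenced by SCRB-Seq, in which a poly-T primer adds to each captured mRNA molecule a barcode of the cell and a random tag, the unique molecular identifier (UMI), by which PCR copies count as 1. The labels give no parents, sex or breed, and the embryos of a day may share a fertilisation batch, so p-values measure the spread between these embryos.

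Of 170 cells, 161 held 2000 or more UMI on genes and were kept, 43 from 6 Day 2 embryos and 118 from 8 Day 3 embryos. UMI were summed over the cells of an embryo, which is the replicate, and levels were expressed in CPM (UMI of the gene per 1000000 UMI on genes). An embryo held between 438899 and 920192 UMI on Day 2 and between 294912 and 600185 on Day 3, and the median cell held 75114 and 24016. CPM is a share of the captured molecules, so a fall in the transcripts of a gene and a rise in those of other genes cannot be told apart by it. Cell barcodes were shared: 77 of 93 barcodes were carried by 2 cells, never within an embryo. By these shared barcodes Day3-E1, Day3-E2 and the 6 Day 2 embryos belong to a first set, Day3-E4 to Day3-E8 to a second, and the set of Day3-E3 was not settled. Day3-E3 shared 1 barcode with another embryo, and its other barcodes continue the series of Day3-E2 in the order of the samples. It was kept out of both sets. The suffix p1, p2 or p3 of the sample titles was read as plate 1, plate 2 or plate 3. This reading is an inference, since the paper mentions only a multi-well plate for the collected cells. Plate 1 holds Day3-E1 to Day3-E4 and no Day 2 embryo. All 10 listed markers of oocytes and early embryos passed the filter on low counts, and their summed level was 9077 to 9993 CPM on Day 2 and 2639 to 10171 CPM on Day 3. On Day 3 the sum was lowest in Day3-E8 (2639 CPM), Day3-E4 (5093) and Day3-E2 (5751), and 5 of the 10 markers were called lower by the edgeR test described with DICER1, as were 595 of all 5274 genes tested. This count was 1 without Day2-E2, 2 without Day3-E4, 3 without Day2-E4, Day3-E2 or Day3-E7 and 4 to 6 without any other embryo, and it was 7 with the spike-in scaling described with AGO2. Their part in the differences between the days was not tested. Of 12 listed markers of cumulus and granulosa cells, HAS2 and STAR held 1659 and 1560 UMI over all embryos, INHBA 133 and the other 9 between 1 and 36, and the sum was 465.9 to 587.1 CPM on Day 2 and 185.4 to 541.5 CPM on Day 3, with 2 of these markers tested and 0 called.

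DGCR8, the RNA-binding subunit of the Microprocessor, was at a lower level in every Day 3 embryo than in any Day 2 embryo. In Day 2 embryos its level was 59.8, 71.7, 51.5, 36.5, 28.2 and 61.5 CPM in Day2-E1 to Day2-E6. In Day 3 embryos it was 24.99, 13.56, 15.7, 0, 13.0, 8.77, 3.23 and 15.45 CPM in Day3-E1 to Day3-E8. Day3-E1 was the highest of the Day 3 embryos and came near Day2-E5, the lowest of Day 2, while Day3-E4 held no UMI of the gene. The means were 51.5 ± 16.42 CPM (SD, n = 6) and 11.84 ± 7.83 CPM (SD, n = 8), a ratio of 0.230. These levels rest on 206 UMI on Day 2 and 41 UMI on Day 3, between 22 and 66 UMI per Day 2 embryo and between 0 and 15 per Day 3 embryo. In Day3-E4 a count of 0 allows up to 8.97 CPM (3 UMI). The Day 3 SD was close to the 5.88 CPM that counting error alone gives, whereas the Day 2 SD was above the 9.06 CPM of counting error. Since the gene was chosen for this fall, it is described and not tested; 284 of 5274 genes tested (5.38%) had all Day 3 embryos below all Day 2 embryos. The log2 fold change was -1.80 (standard error, SE, 0.38), and 2 of the genes tested had a lower one. Within the first barcode set the difference remained, with 19.3 CPM in 2 Day 3 embryos against 51.5 CPM and a smaller log2 fold change of -1.19 (SE 0.44), and on plate 2 and plate 3, which hold both days, the Day 3 means were 9.34 and 10.88 CPM against 44.8 and 54.9 CPM.

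**Figure D1:**
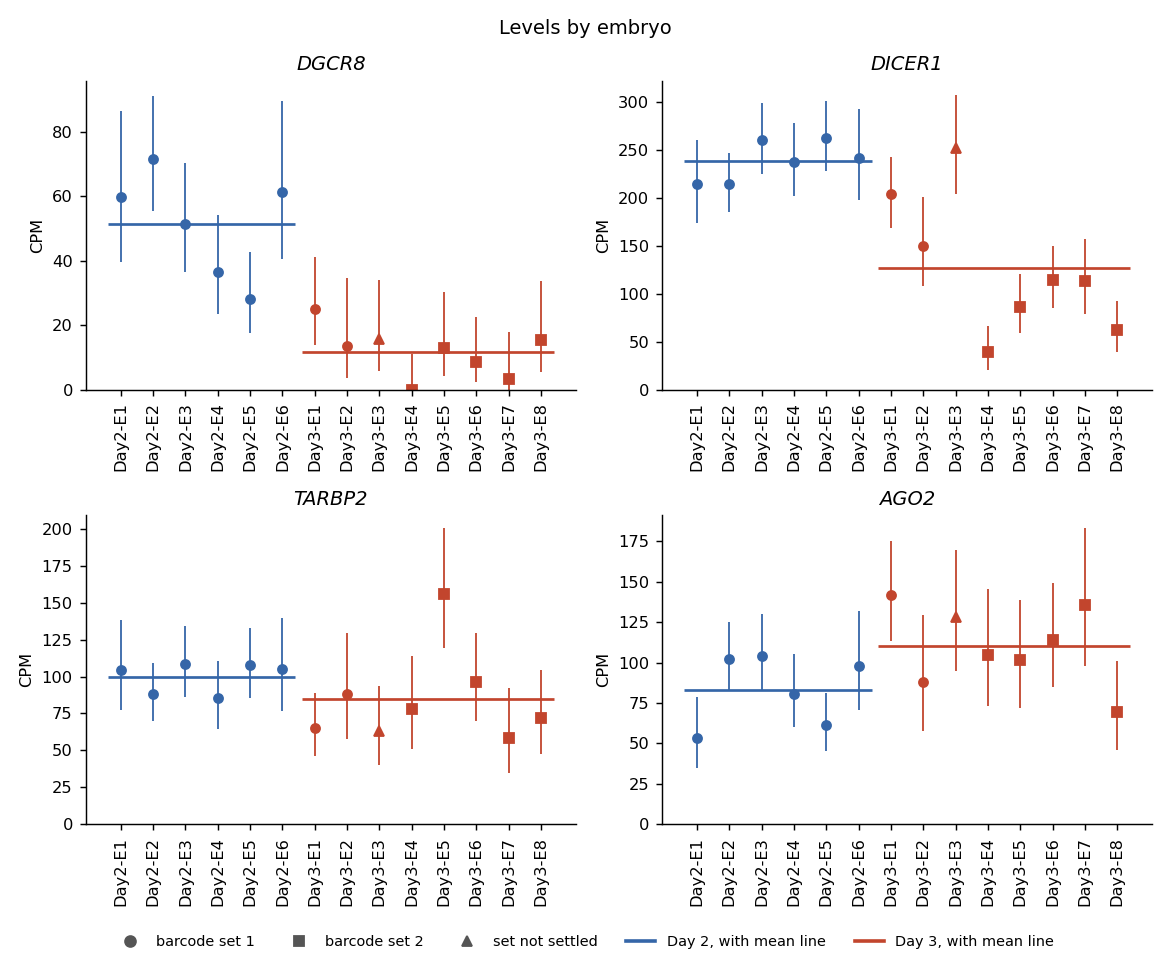
CPM of DGCR8, DICER1, TARBP2 and AGO2 in each of the 14 embryos (x axis), with 95% Poisson intervals that cover counting error only and a line at the mean of each day; circles, squares and triangles mark the barcode set. All Day 3 points of DGCR8 lie below the Day 2 points, DICER1 spreads from 38.9 to 251.4 CPM on Day 3, and TARBP2 and AGO2 overlap between the days.

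At the level of cells, 39 of 43 cells of Day 2 (90.7%) carried a UMI of DGCR8, against 30 of 118 cells of Day 3 (25.4%). By embryo, the share ran from 66.7% to 100% on Day 2 and from 0% in Day3-E4 to 50% in Day3-E1 on Day 3, with no overlap. Day 2 cells were deeper, so the share was also computed for each cell thinned to 10000 UMI, which left 37 and 103 cells. It was then 42.1% ± 12.0 (SD, n = 6 embryos) and 11.0% ± 6.79 (SD, n = 8 embryos), and ran from 23.0% to 54.9% and from 0% to 19.1%. A positive Day 3 cell held a median of 1 UMI of DGCR8 and at most 5, and a positive Day 2 cell a median of 4 and at most 27. On Day 3, 88 cells had no UMI of DGCR8, where 87.9 would be without one from the level of the embryo and the depth of each cell by counting alone. On Day 2 the numbers were 4 and 6.97.

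DICER1, the nuclease of the second cut, had a lower mean on Day 3 but did not pass the test between the days. Its level was 213.7, 214.1, 259.9, 237.5, 262.4 and 241.5 CPM in Day2-E1 to Day2-E6. On Day 3 it was 203.3, 149.2, 251.4, 38.9, 85.8, 114.0, 113.1 and 61.8 CPM in Day3-E1 to Day3-E8. Of the 8 Day 3 embryos 7 lay below all Day 2 embryos, and Day3-E3 lay inside their range. The means were 238.2 ± 21.2 CPM (SD, n = 6) and 127.2 ± 71.6 CPM (SD, n = 8), and the log2 fold change was -0.69 (SE 0.27, edgeR quasi-likelihood adjusted p = 0.0578 after Benjamini-Hochberg correction). The 95% interval of the log2 fold change, without adjustment for the number of genes, ran from -1.26 to -0.12, so that the missed threshold does not show equal levels. The Day 2 embryos differed by little more than counting error, with an SD of 21.2 against 19.6 CPM, and the Day 3 embryos by far more, with 71.6 against 18.8 CPM.

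The Day 3 embryos with high and low DICER1 fell along the barcode sets. The second set, Day3-E4 to Day3-E8, ran from 38.9 to 114.0 CPM, below Day3-E2 and Day3-E1 of the first set and below Day3-E3. With the first barcode set only, which keeps 2 Day 3 embryos, the log2 fold change was -0.26 (SE 0.18, edgeR adjusted p = 0.467). With plate 2 and plate 3 only, whose 4 Day 3 embryos are all of the second set, and with plate as a term, it was -1.10 (SE 0.21, edgeR adjusted p = 0.00103). Since the second set holds no Day 2 embryo, day and set cannot be told apart there. By the paper's collection times, Day3-E5 to Day3-E8 were also collected later than Day3-E1 to Day3-E4. Among the Day 3 embryos with a settled set, set and collection time thus part only in Day3-E4. The effect of collection time was not tested. The split also ran along the paper's clusters of cells by transcriptome. Most cells of Day3-E1 and Day3-E2 shared a cluster with most Day 2 cells, and most of Day3-E3 formed another. Most cells of Day3-E4 to Day3-E8 lay in clusters without any Day 2 cell. Set and cluster were thus not separated either, and their part in the DICER1 levels was not tested. In cells thinned to 10000 UMI, where deep cells weigh no more than others, the levels were 189.1 ± 52.0 CPM (SD, n = 6) and 134.2 ± 74.4 CPM (SD, n = 8), and the log2 fold change was -0.31 (SE 0.31, edgeR adjusted p = 0.476). These thinned values come from 1 random draw, which left 71 UMI of DICER1 on Day 2 and 139 on Day 3. DICER1 passed the threshold without Day3-E1 (edgeR adjusted p = 0.0286) or without Day3-E3 (adjusted p = 0.0133), and by DESeq2 (adjusted p = 0.0404).

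A UMI of DICER1 was found in 93 of 118 cells of Day 3 (78.8%), and the 39 of 43 cells of Day 2 were as many as for DGCR8. Thinned to 10000 UMI the shares were 89.1% ± 2.87 (SD, n = 6 embryos) and 64.2% ± 21.2 (SD, n = 8 embryos). On Day 3 the thinned share ran from 31.3% in Day3-E4 to 90.7% in Day3-E3, and Day3-E1 and Day3-E3 lay inside the Day 2 range of 84.3% to 91.9%. As sequenced, DICER1 thus had a UMI in most Day 3 cells and DGCR8 in a minority of them. Thinned to 10000 UMI, DGCR8 was in a minority of Day 2 cells too (42.1%), and DICER1 already had 4.67 UMI per UMI of DGCR8 on that day.

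TARBP2, the RNA-binding partner of DICER1, did not pass the test between the days. Its level was 104.7, 88.0, 108.2, 85.2, 107.5 and 104.8 CPM in Day2-E1 to Day2-E6 and 65.0, 88.2, 62.8, 77.7, 156.0, 96.4, 58.2 and 72.1 CPM in Day3-E1 to Day3-E8. Of the Day 3 embryos 5 lay below all Day 2 embryos, 2 among them, and Day3-E5 above all. The means were 99.8 ± 10.29 CPM (SD, n = 6) and 84.5 ± 31.6 CPM (SD, n = 8), and the log2 fold change was 0.02 (SE 0.22, edgeR adjusted p = 0.950), with a 95% interval from -0.44 to 0.48. Its sign changed with the scaling and with the embryos left out. A UMI of TARBP2 was found in 40 of 43 cells on Day 2 and in 82 of 118 on Day 3, and thinned to 10000 UMI in 67.7% ± 4.92 (SD, n = 6 embryos) and 51.3% ± 15.32 (SD, n = 8 embryos). On Day 3, 36 cells had no UMI of TARBP2 where counting alone gives 24.6, and the number without a UMI was also above that of counting alone for AGO2 (28 against 17.85) and DICER1 (25 against 19.89).

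AGO2, the Argonaute with slicing activity, was called higher on Day 3 relative to the other genes. Its level was 53.4, 102.2, 104.2, 80.7, 61.4 and 98.0 CPM in Day2-E1 to Day2-E6. On Day 3 it was 141.6, 88.2, 128.3, 104.6, 101.4, 114.0, 135.8 and 69.5 CPM in Day3-E1 to Day3-E8. The groups overlapped: 5 Day 3 embryos lay above all Day 2 embryos and 3 lay among them. The means were 83.3 ± 21.8 CPM (SD, n = 6) and 110.4 ± 24.6 CPM (SD, n = 8), and the log2 fold change was 0.65 (SE 0.21, edgeR adjusted p = 0.0231). AGO2 was the only call among the 3 members tested; of all 5274 genes tested 32.5% were called, and 21.2% were called higher on Day 3. The call was lost with scaling by UMI totals alone (0.41, edgeR adjusted p = 0.163), with the first barcode set only (0.63, adjusted p = 0.228), with plates 2 and 3 (0.59, adjusted p = 0.0913) and without Day2-E1, Day2-E4, Day2-E5 or Day3-E7 (adjusted p between 0.0521 and 0.0848). A UMI of AGO2 was found in 38 of 43 cells on Day 2 and in 90 of 118 on Day 3, and thinned to 10000 UMI in 54.4% ± 6.02 (SD, n = 6 embryos) and 62.0% ± 11.0 (SD, n = 8 embryos), with overlap between the days.

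**Figure D2:**
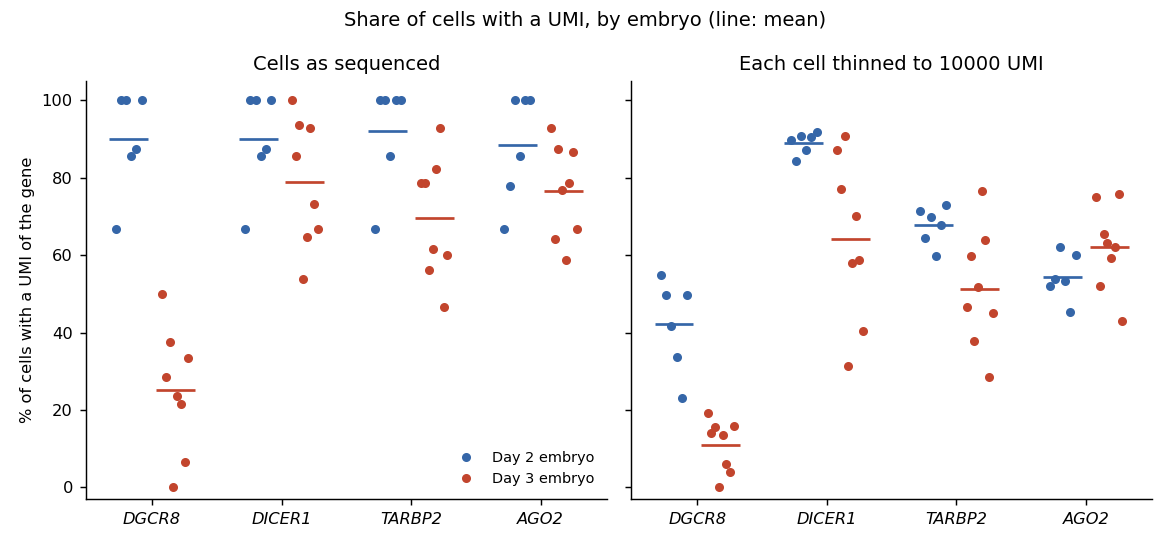
Share of cells with a UMI of DGCR8, DICER1, TARBP2 or AGO2 (y axis, %), 1 point per embryo and a line at the mean over embryos, for cells as sequenced (left) and thinned to 10000 UMI (right). After thinning, DGCR8 has no overlap between the days, DICER1 on Day 3 spreads from 31.3% to 90.7%, and AGO2 has the higher mean on Day 3.

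The direction of AGO2 and TARBP2 depended on what the UMI were scaled to. An equal amount of ERCC spike-in RNA was added to each well, and scaling to spike-in UMI in place of the TMM scaling of edgeR was tried after the data were seen. It moved the median of all log2 fold changes from -0.04 to -0.77, and the calls from 1117 higher and 595 lower to 456 higher and 1907 lower. A well held a single blastomere, so this scale compares amounts per cell. A cell of the 16-cell stage is a smaller part of its embryo than a cell of the 8-cell stage. A lower value per cell is thus not by itself a loss from the embryo, and the part of cell division was not tested. On this scale the log2 fold change was -2.48 for DGCR8 (SE 0.50), -1.24 for DICER1 (SE 0.44, edgeR adjusted p = 0.0307), -0.80 for TARBP2 (SE 0.32, edgeR adjusted p = 0.0434) and -0.095 for AGO2 (SE 0.34, edgeR adjusted p = 0.811). With UMI totals alone the median was -0.27, with 890 genes higher and 981 lower. AGO2 thus lay above the median of all genes on each of these 3 scales, but rose past the threshold with TMM scaling alone among them. It also did so with the size factors of DESeq2 (adjusted p = 0.00668). TARBP2 lay within 0.1 of the median on each of the 3 scales. The paper did not use spike-ins for its own normalisation, on the ground that technical variation affects them and the cell's transcripts unequally.

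Per 1000 spike-in UMI, an amount per cell and not per embryo, UMI of DGCR8 were 3.51 ± 1.099 on Day 2 (SD, n = 6 embryos) and 0.658 ± 0.579 on Day 3 (SD, n = 8 embryos). For AGO2 the values were 5.71 ± 1.599 (SD, n = 6) and 5.39 ± 2.64 (SD, n = 8). On Day 3 they ran from 2.71 to 9.98 and were higher in Day3-E1 to Day3-E3 than in Day3-E4 to Day3-E8. UMI on all genes per 1000 spike-in UMI were 68254 ± 2323 (SD, n = 6) and 48013 ± 17267 (SD, n = 8). On Day 3 this value ran from 32605 to 70453. Day3-E1 to Day3-E3 lay inside the Day 2 range of 64788 to 71727, and Day3-E4 to Day3-E8, the second barcode set, lay below it. The shift with spike-in scaling was thus not shared by all Day 3 embryos, and its cause was not tested. A Day 2 cell held 1348 ± 170 spike-in UMI (SD over 6 embryos) and a Day 3 cell 612 ± 221 (SD over 8 embryos), so capture or sequencing depth differed between the days as well.

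**Figure D3:**
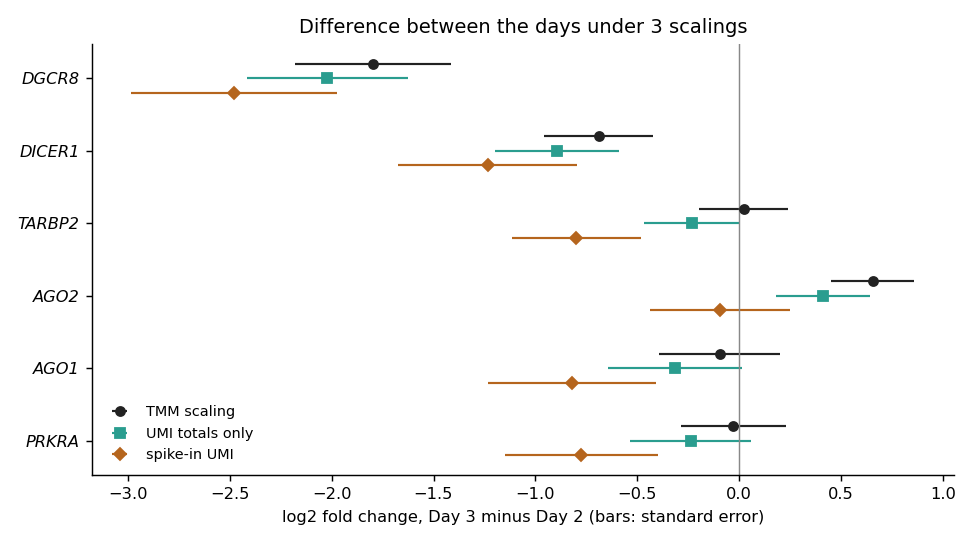
Log2 fold change between Day 3 and Day 2 (x axis, bars are standard errors) of DGCR8, DICER1, TARBP2, AGO2, AGO1 and PRKRA with TMM scaling, with UMI totals only and with spike-in UMI. DGCR8 is at -1.80, -2.02 and -2.48 and DICER1 below 0 on all 3, while AGO2 is at 0.65, 0.41 and -0.095 and the sign of TARBP2 changes.

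Whether the other steps followed DGCR8 was also asked within each day, so that the difference between the days does not enter. Of 6 relations computed, none passed the exact permutation test, two-sided, with adjustment over the 6. Over the 8 Day 3 embryos, DICER1 had a Pearson r of 0.62 with DGCR8 (exact permutation p = 0.0970, adjusted p = 0.367) and a Spearman rho of 0.67 (exact permutation p = 0.0831, adjusted p = 0.498). Without Day3-E1 and Day3-E4, the embryos farthest from the median of DGCR8, the Pearson r was 0.25 (exact permutation p = 0.606, n = 6). Leaving them out narrowed the range of DGCR8 from 0 to 24.99 CPM to 3.23 to 15.7 CPM. A narrower range can lower r by itself, so the lower value does not show what the relation rested on. On Day 3 the means of both genes also differed by barcode set. For DGCR8 the sets overlapped, with Day3-E8 of the second set (15.45 CPM) above Day3-E2 of the first (13.56 CPM). DGCR8 averaged 19.3 CPM in the 2 embryos of the first set and 8.09 CPM in the 5 of the second, and DICER1 176.2 and 82.7 CPM. The Day 3 relation was not separated from set. Over the 6 Day 2 embryos the sign was opposite, with a Pearson r of -0.70 (exact permutation p = 0.122, adjusted p = 0.367) and a Spearman rho of -0.60 (exact permutation p = 0.242, adjusted p = 0.725). TARBP2 had a Pearson r of -0.13 on Day 2 (exact permutation p = 0.836) and of -0.02 on Day 3 (exact permutation p = 0.965), with a Spearman rho of -0.26 (exact permutation p = 0.658) and -0.24 (exact permutation p = 0.582). AGO2 had a Pearson r of 0.46 on Day 2 (exact permutation p = 0.340) and 0.09 on Day 3 (exact permutation p = 0.831), with a Spearman rho of 0.37 (exact permutation p = 0.497) and 0.12 (exact permutation p = 0.793). Adjusted over the 6 relations, p was 0.681 or more for each Pearson r and 0.790 or more for each Spearman rho of TARBP2 and AGO2 (exact permutation). With 0 to 15 UMI of DGCR8 in a Day 3 embryo, a relation hidden by counting error would not be detectable at this depth.

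Because 2 genes of an embryo share its depth, their ratio needs no scaling. Summed over the embryos of a day, there were 4.67 UMI of DICER1 per UMI of DGCR8 on Day 2 and 10.22 on Day 3. For TARBP2 the ratio was 1.93 and 6.46, and for AGO2 1.66 and 8.66. All 3 summed ratios were thus higher on Day 3, and changed most for AGO2 and least for DICER1. By embryo, among the 6 Day 3 embryos with more than 1 UMI of DGCR8, the ratio of AGO2 lay above the Day 2 range in each. The ratio of TARBP2 in Day3-E1 (2.6) lay inside its Day 2 range of 1.23 to 3.82, and that of DICER1 in Day3-E1 (8.13), Day3-E5 (6.6) and Day3-E8 (4.0) inside the Day 2 range of 2.99 to 9.32. This is a description, since DGCR8 was chosen for its fall.

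**Figure D4:**
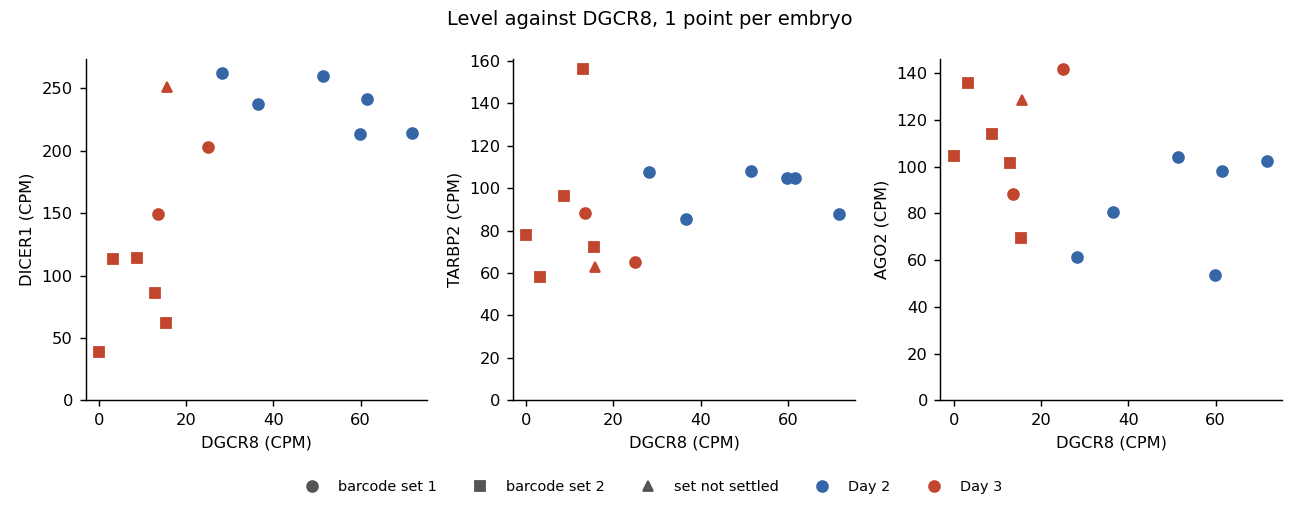
CPM of DICER1, TARBP2 and AGO2 (y axes) against CPM of DGCR8 (x axis), 1 point per embryo. DICER1 on Day 3 runs from 38.9 CPM at 0 CPM of DGCR8 to 203.3 at 24.99, with Day3-E3 at 251.4 and 15.7, while among Day 2 embryos the highest DICER1 lies at the lowest DGCR8.

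Over all 14 embryos, the genes with the highest Pearson r to DGCR8 on log2(CPM + 1) values were FANCD2 (0.95), NDUFA12 (0.95), CEP135 (0.94), PDE5A (0.94) and HSP90AB1 (0.94). The embryos share depth and day, and DGCR8 differs between the days, so these values describe a pattern. FANCD2, a DNA repair gene, averaged 110.0 ± 15.7 CPM (SD, n = 6) in Day 2 embryos and 48.8 ± 22.2 CPM (SD, n = 8) in Day 3 embryos. Of 5273 genes, DICER1 ranked 292 with an r of 0.81, TARBP2 2713 with 0.35 and AGO2 3967 with -0.35.

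Relatives of the members were read from the same table. AGO1, another Argonaute, averaged 44.0 ± 13.52 CPM (SD, n = 6) and 34.3 ± 18.2 CPM (SD, n = 8), and its log2 fold change was -0.10 (SE 0.30, edgeR adjusted p = 0.828). PRKRA, the relative of TARBP2, averaged 64.2 ± 16.0 CPM (SD, n = 6) and 53.9 ± 22.8 CPM (SD, n = 8), and its log2 fold change was -0.03 (SE 0.26, edgeR adjusted p = 0.940). AGO4 has no entry in the count table. AGO3 held too few UMI to pass the filter on low counts. Its level was 2.137 to 6.09 CPM in Day 2 embryos, from 1 to 4 UMI each, and 3.33, 20.3, 13.09, 98.6, 7.798, 15.34, 22.6 and 23.2 CPM in Day3-E1 to Day3-E8. All Day 3 embryos but Day3-E1 lay above all Day 2 embryos, and Day3-E4, without a UMI of DGCR8, held 33 of the 72 UMI of AGO3 on Day 3. The means differed by an exact permutation test over the 3003 splits of the embryos (two-sided, p = 0.00200), and without Day3-E4 too (exact permutation p = 0.00350, n = 7). These p-values were not adjusted for other genes. The ratio of the summed levels was 7.07 (95% counting interval 3.89 to 13.92), and 4.29 without Day3-E4 (2.24 to 8.75). When all genes were tested without the filter, its log2 fold change was 3.08 (SE 0.67, edgeR adjusted p = 0.00180). On Day 3 its mean was 11.84 CPM in the 2 embryos of the first barcode set and 33.5 CPM in the 5 of the second. The second set holds no Day 2 embryo, so day and set cannot be told apart there for AGO3 either.

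Most of the tested RNA-binding cofactors of the Microprocessor rose on Day 3. Of 13 cofactors in the list, 11 were listed and tested, 9 rose and 0 fell on Day 3, with a median log2 fold change of 2.69 against -0.04 for all genes tested, of which 21.2% rose. SRSF3, a splicing factor that binds a motif beside many hairpins, averaged 40.0 ± 3.92 CPM (SD, n = 6) on the earlier day and 932.0 ± 436 CPM (SD, n = 8) on the later, and rose by 4.85 on the log2 scale (SE 0.44, edgeR adjusted p = 4.6e-06). The helicases DDX17 and DDX5 rose by log2 fold changes of 3.54 and 2.89, and ILF2, a subunit of a double-stranded RNA-binding complex, by 2.89. These proteins act in splicing and other RNA processing too. The count was 9 or 10 when any embryo was left out and at least 8 under all other settings, and the 8 of the first barcode set came from 2 Day 3 embryos. The sizes were smaller there: the list median was 1.92 with the first barcode set and 1.704 with spike-in scaling, SRSF3 was at 3.48 and 3.84, and DDX5 at 1.92 on both.

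Of the 7 genes of export and dicing partners, 5 were listed and 4 tested, of which XPO1, the exportin of many proteins and some RNA, rose by 2.00 on the log2 scale (edgeR adjusted p = 0.00226) and RAN, the GTPase that exportins use, by 1.25 (adjusted p = 0.00290). No gene of the list fell with TMM scaling, and 2 of 4 is read against the 21.2% of all genes that rose. With spike-in scaling 1 rose and 1 fell. With the first barcode set only, neither passed the threshold (edgeR adjusted p = 0.0973 and 0.146), and with spike-in scaling RAN had a log2 fold change of 0.35 (adjusted p = 0.312).

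Of 10 tested genes of the list of other Argonautes and loading factors, 2 rose and 1 fell, with a median of -0.07. This is near the shares over all genes tested, of which 21.2% rose and 595 of 5274 fell. With UMI totals 1 rose and 2 fell, and with spike-in scaling 1 rose and 4 fell. The co-chaperone PTGES3 rose by 2.71 on the log2 scale (edgeR adjusted p = 0.000935) and the chaperone HSPA8 by 1.302 (adjusted p = 0.0370). HSP90AB1, a chaperone of the HSP90 family, fell by 0.75 on the log2 scale (edgeR adjusted p = 0.0185). Its level averaged 1406 ± 126 CPM (SD, n = 6) and 707.1 ± 273 CPM (SD, n = 8), with no overlap between the days. Of 8 tested silencing partners of Argonaute, 1 rose and 2 fell, where 1117 and 595 of all 5274 genes did. With UMI totals, and with spike-in scaling too, 0 rose and 4 fell, and between 1 (without Day2-E1, Day2-E2, Day3-E4 or Day3-E5) and 4 (without Day3-E1) fell when an embryo was left out. TNRC6B, a scaffold that links Argonaute to the removal of poly(A) tails, fell by 0.95 on the log2 scale (edgeR adjusted p = 0.0123) and the helicase DDX6 by 0.72 (adjusted p = 0.0369), while FMR1, an RNA-binding protein, rose by 1.00 on the same scale (adjusted p = 0.0275). HSPA8 and FMR1 lost their calls with UMI totals alone (edgeR adjusted p = 0.0634 and 0.0733). HSPA8 also did so on leaving out any of 8 embryos, and FMR1 and DDX6 any of 5. With the first barcode set only, HSP90AB1 was at -0.37 (edgeR adjusted p = 0.219), TNRC6B at -0.44 (adjusted p = 0.219) and DDX6 at -0.29 (adjusted p = 0.622), and HSPA8 and FMR1 were not called there either.

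Of 6 tested genes of miRNA tailing and turnover, 2 rose and 1 fell, against 1117 and 595 of all 5274 genes, and with spike-in scaling 1 rose and 3 fell. ZCCHC6, which adds uridine to RNA ends, averaged 354.6 ± 49.8 CPM (SD, n = 6) on the earlier day and 2559 ± 1771 CPM (SD, n = 8) on the later, and rose by 3.24 on the log2 scale (SE 0.54, edgeR adjusted p = 0.000394), and PAPD4, which adds adenosine, by 1.22 (adjusted p = 0.00702). ZSWIM8, of the ubiquitin ligase that acts in target-directed miRNA decay, fell by 1.102 on the log2 scale (edgeR adjusted p = 0.00957). Its level averaged 200.5 ± 32.9 CPM (SD, n = 6) and 81.1 ± 46.9 CPM (SD, n = 8), again without overlap. With spike-in scaling, PAPD4 was at 0.30 and not called (edgeR adjusted p = 0.398), and with the first barcode set only ZSWIM8 was at -0.73 and not called (edgeR adjusted p = 0.0882).

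**Figure D5:**
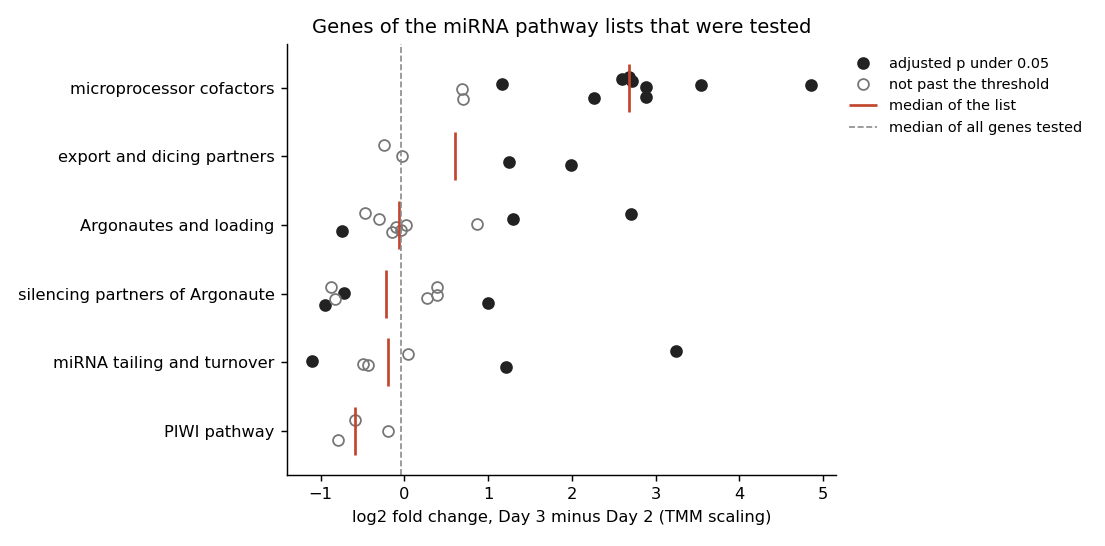
Log2 fold change between Day 3 and Day 2 (x axis, TMM scaling) of each tested gene of the 6 pathway lists; filled points passed an adjusted p of 0.05 and red lines are list medians. The cofactors of the Microprocessor have a median of 2.69, while the medians of the Argonaute, silencing and turnover lists lie between -0.22 and -0.07.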

How the data were processed

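Blastomeres were sequenced by SCRB-Seq. The authors mapped reads to Bos tau7 and ERCC sequences with STAR 2.5.2b, generated UMI tables with the Drop-seq pipeline and deposited whole-number UMI counts per gene and cell, the only values used; their normalised table, in which counts were divided by cell totals, was not used here. Members and gene lists were chosen with earlier results of these data known.

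Cells with 2000 or more UMI on genes were kept, ERCC rows (92) were left out of gene totals, and counts were summed per embryo. Days were compared with edgeR 4.0.16 (filterByExpr, library sizes over the genes kept, TMM, glmQLFit, glmQLFTest) on all 14 embryos, with Benjamini-Hochberg adjustment over 5274 genes and a threshold of 0.05. The fit was first run with library sizes from all genes, with and without robust dispersion, and the present form was adopted after those results had been seen, to match an earlier processing of these counts; no call of a member differed between the 3 forms, though DICER1 in cells with 10000 or more UMI did. Spike-in scaling, list counts under each setting and AGO3 without Day3-E4 were likewise added after seeing the data. DESeq2 1.42.0 was an alternative. Relations and AGO3 were tested by exact permutation (scipy 1.17.1). The steps were tested on simulated data. Named genes were all members listed, the 5 genes with the highest r to DGCR8, AGO1, AGO3, AGO4 and PRKRA, and at most 4 called genes per direction and list. Intervals (95%) and floors (3 UMI) cover counting error only.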

Additional observations from a re-analysis of the deposited data

Results flagged for a closer look

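In 52 groups of embryos (26 named genes on each day), 3 embryos stood farther from the rest than Dixon's 95% criterion allows, and chance flags about 1 group in 20. TARBP2 was at 156.0 CPM in Day3-E5, against 96.4 CPM in the next Day 3 embryo. AGO3 was at 98.6 CPM in Day3-E4, against 23.2 CPM in the next. CEP135, a centriole gene among those most like DGCR8, was at 225.0 CPM in Day2-E2, against 178.1 CPM in the next Day 2 embryo.

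PRKRA moved in opposite directions on the plates that hold both days. On plate 2 its mean was 81.5 CPM in 2 Day 2 embryos and 35.2 CPM in 2 Day 3 embryos, and on plate 3 it was 55.5 CPM in 4 Day 2 embryos and 81.7 CPM in 2 Day 3 embryos, without overlap on either plate. The difference between the plates was not tested.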

How the results depend on the processing

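The count of 1712 called genes ran from 1327 (without Day3-E4) to 2163 (without Day3-E1) when an embryo was left out, and was 759 with thinned cells, where fewer genes were tested, 351 with the first barcode set, and 1675 and 1674 in the forms of the fit tried first. DGCR8 kept its sign under every alternative in which it was fitted, from -2.03 to -1.64 with embryos left out, was smallest at -1.19 (SE 0.44) with the first barcode set, and did not pass the filter in thinned cells. DICER1 ran from -0.87 to -0.57 with embryos left out. It passed the threshold at -0.90 (UMI totals, adjusted p = 0.0296 by edgeR's test), -0.70 (DESeq2), -0.71 (cells with 10000 or more UMI, 0.0489 by edgeR's test, but 0.0645 with library sizes from all genes), -1.10 (plates 2 and 3) and -1.24 (spike-ins). TARBP2 ran from -0.12 to 0.10 with embryos left out, and was at -0.23 (UMI totals), -0.062 (no filter on low counts), -0.036 (cells with 10000 or more UMI, and -0.00077 with library sizes from all genes), -0.22 (first barcode set) and -0.80 (spike-ins). AGO2 ran from 0.51 to 0.70 with embryos left out and missed the threshold at 0.41 (UMI totals), 0.58 (no filter, adjusted p = 0.0772 by edgeR's test), 0.74 (thinned, 0.0682), 0.63 (first barcode set), 0.59 (plates 2 and 3) and -0.095 (spike-ins). AGO1 was at 0.14 with the first barcode set, and from -0.28 to 0.016 with embryos left out, and PRKRA at 0.090 with plates 2 and 3 and from -0.18 to 0.060 with embryos left out. The cause of these changes was not tested. The Day 3 relation to DGCR8 without the 2 farthest embryos was 0.18 for TARBP2 and -0.60 for AGO2, and the Day 2 relation, over the 4 embryos left, -0.93 and 0.07.

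Embryo numbers are names only: deviations of same-numbered embryos from their day means correlated at -0.12 to 0.01. With embryo number as a block, 702 genes were called, AGO2 was at 0.66 (adjusted p = 0.0853 by edgeR's test) and PRKRA at 0.086. HSPA8, FMR1, DDX6 and FANCD2 lost their calls too, and the block ended no other call of a named gene.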

Other observations

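Genes of the PIWI pathway, which in germ cells uses small RNA made without DICER1, were mostly too low to test: 7 of 13 were listed and 3 passed the filter on low counts. None of the 3 passed the threshold between the days by edgeR's quasi-likelihood test with TMM scaling. Of the listed genes 1 was called lower with UMI totals and without Day3-E1, and 2 with spike-in scaling, with plates 2 and 3, without the filter and by DESeq2. MAEL had a mean of 263.8 CPM on Day 2 and 154.3 CPM on Day 3 (adjusted p = 0.135 by edgeR's test), TDRKH 39.3 and 18.6 CPM (adjusted p = 0.0955), and the Argonaute relative PIWIL3 36.5 and 27.1 CPM (adjusted p = 0.658). These genes were named after their values were seen. The summed level of the 7 listed genes was 317.9 to 472.3 CPM in Day 2 embryos and 74.7 to 361.6 CPM in Day 3 embryos.

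The 9 cells with fewer than 2000 UMI held 0 UMI of DGCR8, DICER1, TARBP2 and AGO2 in all.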
